A study of Danio rerio with 27 samples.

Results

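Metaphocyte progenitors sorted from the gill of adult zebrafish were compared with those sorted from the epidermis, using the 12 libraries of fish that the labels call siblings of spic mutants. They were chosen by tissue and genotype alone: 5 gill and 7 epidermis libraries out of the 27 in the series, which also holds 8 gill and 7 epidermis libraries of spic mutants. All 27 came from adults of the transgenic strain Tg(spic:EGFP; mpeg1:DsRedx), in which the spic promoter drives a green and the mpeg1 promoter a red fluorescent protein. Each library pooled 30 cells sorted as green positive and red negative, and Smart-seq2 with 23 cycles of PCR made its cDNA. No source used here gives the siblings' own genotype at spic, or tells if each library of a group was a fish of its own, so that every p-value below measures the spread between these libraries, which may be technical.

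Metaphocytes are myeloid-like cells of the barrier tissues of zebrafish. They resemble macrophages and dendritic-like antigen-sampling cells, yet do not descend from blood-forming cells: those of the skin trace to ectoderm and those of the gill and gut to endoderm. Spic is a transcription factor of the Ets family, close to PU.1, which directs myeloid fate and which zebrafish encode in the paralogues spi1a and spi1b. The comparison asked in which genes the precursors of the skin and gill branches differ. The pharyngeal pouches that line the gill clefts are endoderm and use Pax1 and Pax9, whereas Dlx3 and keratins are features of surface ectoderm, so that both origins have well-known genes.

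Transcripts of spic and of its relative spi1a were present in every library of both tissues. For spic the sort on its green reporter favours this, and the part of that sort in its level was not tested. The level of spic itself was 140.4, 244, 263, 317 and 499.9 TPM in gill libraries 1 to 5, against 561 to 760.2 TPM with a median of 621 TPM in epidermis. Every gill library was below every epidermis library. The mean log2(TPM + 1) difference, gill minus epidermis, was -1.23 (two-sided exact permutation test, p = 0.00126, the smallest that 792 regroupings can give), and the ratio of the group means was 0.459. With 30 cells pooled, fewer expressing cells and less RNA per cell cannot be told apart, here or below. The PU.1 paralogue spi1b was listed at 0 TPM in all 12 libraries. The paralogue spi1a stood at 308, 592, 593, 755 and 446 TPM in gill and 325 to 592 TPM with a median of 564 TPM in epidermis, overlapping ranges with a log2 difference of 0.09 (SE 0.26, adjusted p = 0.94). The transcript mpeg1.1, whose promoter drove the red reporter that the sort excluded, was present in all 12 libraries at 12.2 to 140.1 TPM (median 116) in gill and 101 to 335 TPM (median 216) in epidermis. The pan-leukocyte gene ptprc and the macrophage colony-stimulating factor receptor gene csf1ra were listed at 0 TPM in all 12 libraries. The epithelial adhesion gene epcam, chosen after its values were seen, was high in both tissues, at 1182 to 4619 TPM (median 2253) in gill and 1492 to 3909.8 TPM (median 2541) in epidermis.

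Gill libraries held 8407 to 10655 genes at 1 TPM or more and epidermis libraries 7688 to 9097. The median correlation across genes between 2 libraries was 0.606 within gill, 0.641 within epidermis and 0.580 between the tissues. TPM keeps no total depth, but the smallest steps between low values put the worth of 1 read at 0.111 to 0.205 TPM in gill and 0.120 to 0.215 TPM in epidermis, so that no library was more than 1.94 times as coarse as another. Of the lists of other cell types, erythrocyte and fibroblast markers had no tested member, although fibroblast markers summed to up to 98.9 TPM in a gill library. T and NK cell markers had 3 tested members and summed to 565 to 884 TPM in gill and 166 to 728 TPM in epidermis. These sums were mostly from the genes gata3 and tagapa. Smooth muscle and pericyte markers had 2 tested members and reached 339 TPM in gill and 70.8 TPM in epidermis. Endothelial and pillar cell markers had 1 and summed to 33.4 to 80.8 TPM and 3.70 to 42.2 TPM. B cell markers had 1 tested member and reached 104 TPM in gill and 26.4 TPM in epidermis. Of the tested members of these 4 lists limma called 0, beside 1.59% of all genes, and 1 had an unadjusted p under 0.05, beside 1218 of all 9712 genes. With so few tested members a count of 0 is near the background and does not show equal levels.

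Of 9712 genes at 1 TPM or more in at least 5 of the 12 libraries, 154 differed between the tissues at an adjusted p under 0.05 (limma, Benjamini-Hochberg), or 1.59%. Of these, 93 were higher in gill (0.958%) and 61 higher in epidermis (0.628%). The balance followed the scaling: with each library centred on its median, 68 were higher in gill and 76 higher in epidermis. The median log2 difference over all tested genes, gill minus epidermis, was 0.096. The filter is not even-handed, since a gene present in gill alone had to reach 1 TPM in all 5 gill libraries and one present in epidermis alone in 5 of 7. Of the tested genes, 56 were under 1 TPM in all gill libraries and 18 in all epidermis libraries. Such genes passed the filter only through the other tissue, so that the direction of their difference was partly set by the filter. Among those named below, they include pax9, pax1b, gadd45ab and dact2 through gill and lmna, gpr157 and hoxc3a through epidermis. The ranges of the 2 groups did not overlap for 192 genes (1.98%), among them 103 of the 154. The calls rest on the limma model: an exact rank test called 0 genes after adjustment, with 1185 at an unadjusted p under 0.05 against 1218 in limma, its smallest possible p of 0.00253 being shared by 193 genes.

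**Figure D1:**
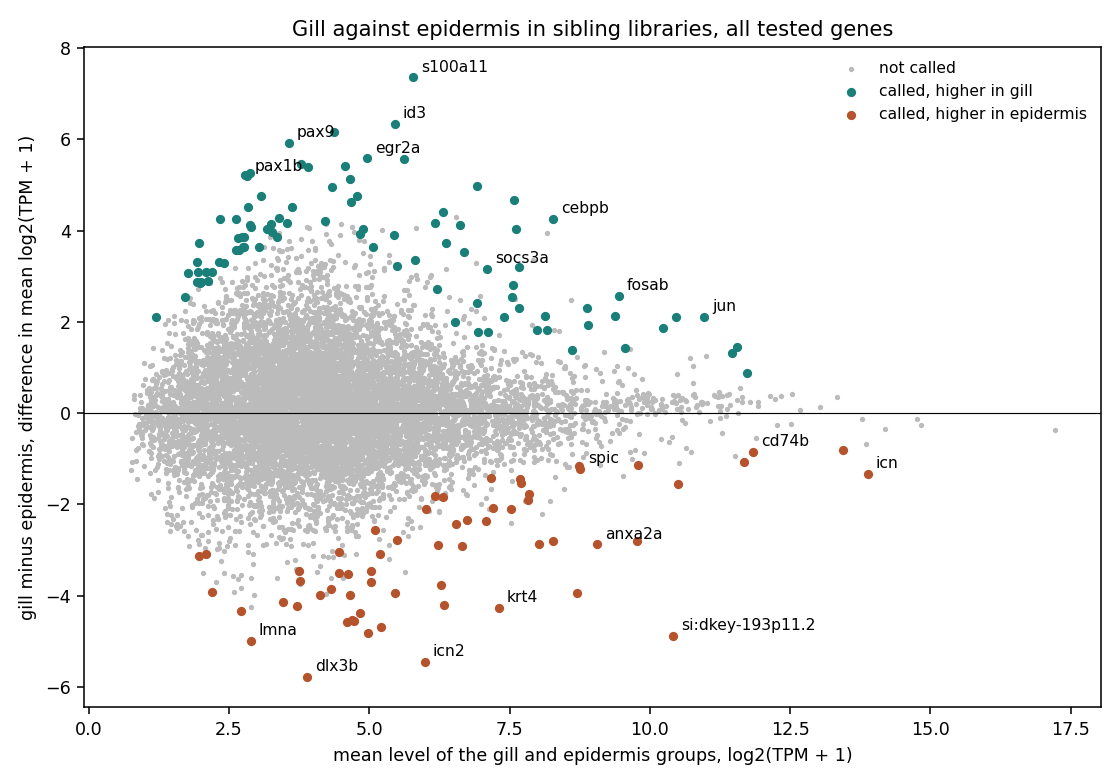
Each point is 1 of the 9712 tested genes: the horizontal axis is the mean of the log2(TPM + 1) group levels and the vertical axis the gill minus epidermis difference in siblings. Coloured points are the 93 genes called higher in gill and the 61 called higher in epidermis, and the gene with the smallest adjusted p, si:dkey-193p11.2, lies at -4.88.

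The pharyngeal pouch factor genes pax9 and pax1b were high in gill and under 1 TPM in epidermis, and the surface ectoderm factor gene dlx3b was low in gill and high in epidermis. The pouch factor gene pax9 was at 95.6, 31.3, 92.1, 136 and 127 TPM in gill libraries 1 to 5, and did not exceed 0.901 TPM in any epidermis library (median 0.424). Its relative pax1b was at 35.0, 72.2, 42.7, 15.6 and 53.7 TPM in gill and at most 0.265 TPM in epidermis. Neither gene's ranges came near each other. The log2 difference was 5.93 (SE 0.81, adjusted p = 0.00046) for pax9 and 5.19 (SE 0.77, adjusted p = 0.00081) for pax1b. Their list, of factors of endoderm and pharyngeal pouches, held 38 genes in the table, of which 4 passed the filter. These 2 rose in gill, beside 0.958% of all genes. They passed the filter only through the 5 gill libraries, where they were high, so that their share of the 4 was partly set by the filter. The other 2 tested members were not called. Of those, foxq1a averaged 114 TPM in gill and 165 TPM in epidermis (log2 difference -0.75) and sox9a 22.8 and 19.9 TPM (1.1).

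In the opposite direction, dlx3b, a homeobox gene of surface ectoderm and the developing skin, was at 1.28, 0.25, 0.792, 1.63 and 0.358 TPM in gill. In epidermis it ranged from 41.9 to 238 TPM with a median of 86.6 TPM. The difference was -5.79 (SE 0.69, adjusted p = 0.00012). Of 15 tested factors of ectoderm and epidermis, dlx3b was the 1 gene that passed, beside 1.59% of all genes, and the list's median difference was -0.06. The early ectoderm factor gene tfap2a had 0.578 TPM on average in gill and 19.2 TPM in epidermis without passing (adjusted p = 0.18).

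Further genes of this kind were too sparse for the filter and are given as values, chosen after these were seen. They do not stand for the other untested members of the lists. The endoderm and pouch list as a whole summed to 202 to 646 TPM in gill and 88.8 to 426 TPM in epidermis. The ectoderm and epidermal list summed to 681 to 1031 TPM and 502 to 1171 TPM. Both pairs of ranges overlapped. The pax1a gene, the duplicate of pax1b, was at 0.234, 29.3, 58.2, 18.2 and 79.2 TPM in the 5 gill libraries and at no more than 0.420 TPM in epidermis. The pouch gene eya1 reached 42.5 TPM in gill and 0.428 TPM in epidermis at most, and was under 1 TPM in gill libraries 1 and 4. The gill and parathyroid factor gene gcm2 was at 49.0 and 29.1 TPM in gill libraries 2 and 5 and under 1 TPM in the other 3. In sibling epidermis it was at no more than 2.28 TPM. It is also on the list of ionocyte markers, and the part of ionocytes in its level was not tested. These 3 genes were each high in some gill libraries and under 1 TPM in others, and in mutants eya1 and gcm2 reached 57.0 and 208 TPM in an epidermis library. The dlx4b gene, the neighbour of dlx3b in the RefSeq annotation of assembly GRCz12tu, was listed at 0 TPM in all 5 gill libraries, and in epidermis it was between 7.90 and 24.3 TPM in 4 libraries and under 1 TPM in the other 3. In mutant epidermis dlx4b did not exceed 0.568 TPM in any library.

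Hox genes, which mark position along the head-to-tail axis, were low in both tissues, and 1 of the 47 in the table passed the filter. That gene, hoxc3a, was under 1 TPM in all gill libraries and reached 1 TPM in 5 of 7 epidermis libraries, with a log2 difference of -2.24 (SE 0.73, adjusted p = 0.158). Of the 15 genes of the HoxC clusters, 7 reached 1 TPM in some epidermis library and 0 in any gill library, with 7 epidermis libraries against 5 of gill. Their summed level was 0.362 to 1.83 TPM in gill and 0.839 to 85.5 TPM in epidermis with a median of 22 TPM. The HoxC sums of the tissues overlapped. The HoxA and HoxB clusters reached their highest sums in gill instead. The 10 HoxA genes summed to 0.687 to 72.6 TPM in gill (median 22.2) and 0 to 8.70 TPM in epidermis (median 0.317), with 3 genes at 1 TPM in some library of each tissue. The HoxB genes summed to at most 20.4 TPM in gill (median 0.378) and 0.559 TPM in epidermis. The posterior gene hoxc9a, for example, reached 1 TPM in 3 of 7 sibling epidermis libraries and 0 of 5 sibling gill libraries, and in mutants in 6 of 7 and 0 of 8. The gene hoxc11a had the same counts in siblings, but in mutants it reached 1 TPM in 0 of 7 and 0 of 8.

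**Figure D2:**
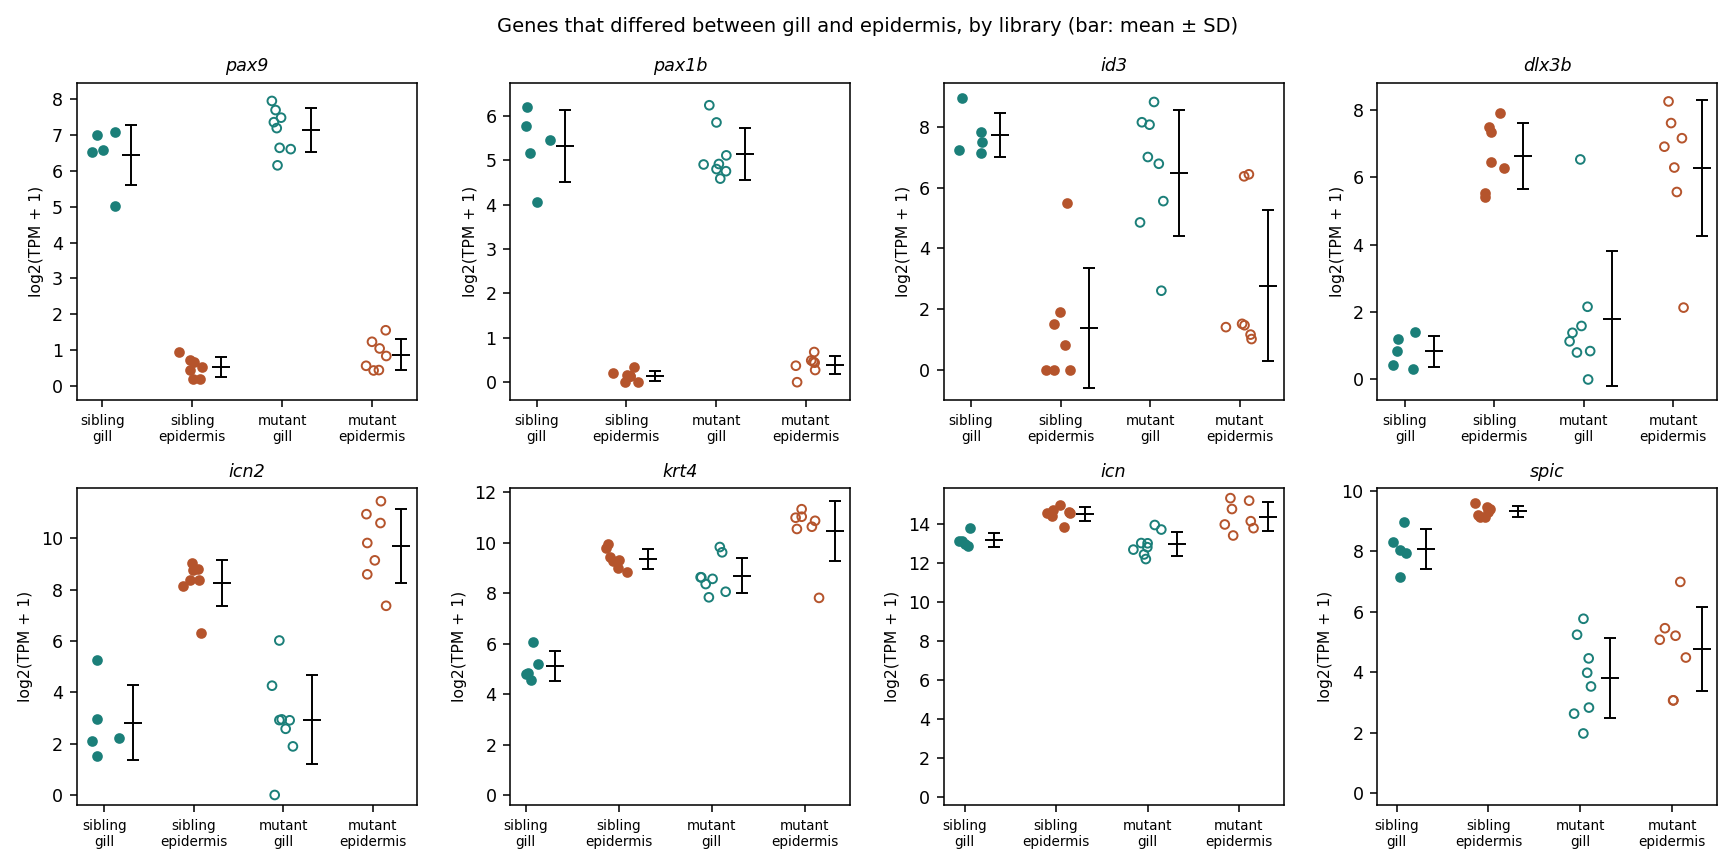
Each panel shows 1 gene and each point 1 library, on a log2(TPM + 1) axis, with the mean ± SD beside the points. In siblings (filled points), gill is above epidermis for pax9, pax1b and id3 and below it for dlx3b, icn2, krt4, icn and spic, with no overlap in any of the 8 panels; mutant libraries (open points) are shown for comparison.

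Several genes of outer skin keratinocytes were higher in epidermis. Of 14 tested markers of superficial keratinocytes, 4 fell in gill and 0 rose, a share of 28.6% beside the 0.628% of all genes, and the list's median difference was -1.22. The gene krt4, a keratin of superficial epidermal cells, was at 66.5, 27.9, 36.1, 22.5 and 26.6 TPM in gill and 462 to 983 TPM with a median of 635 TPM in epidermis, which gives -4.27 (SE 0.33, adjusted p = 1.9e-07). The S100-family calcium-binding protein gene icn2 was at 3.66, 1.84, 6.77, 3.32 and 37.4 TPM in gill against 78.6 to 529.7 TPM with a median of 328 TPM in epidermis. Its adjacent paralogue icn (ictacalcin), among the most abundant transcripts of both tissues, was at 7522, 14255, 8007, 8813 and 8829 TPM in gill and 14568 to 32178 TPM with a median of 24084 TPM in epidermis. The log2 difference was -5.44 (SE 0.61, adjusted p = 6.9e-05) for icn2 and -1.34 (SE 0.17, adjusted p = 0.00025) for icn. The fourth, anxa1a, which encodes the phospholipid-binding annexin A1, was at 1.75 to 41.9 TPM (median 26.4) in gill and 129.6 to 419 TPM (median 240.0) in epidermis, at -3.76 (SE 0.57, adjusted p = 0.00095). These 4 genes passed under every limma alternative tried.

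The other 10 tested members of that list did not pass. The keratin gene krt5 averaged 122 TPM in gill and 282 TPM in epidermis (log2 difference -1.49, adjusted p = 0.13). The junction genes cldne, cldnf, ppl and dsc2l differed by -0.59 to 0.26, and krt17, krt92, tgm1 and cyt1 were under 1 TPM in all 12 libraries. The summed level of the list was 8276 to 14794 TPM in gill and 16551 to 33866 TPM in epidermis, mostly icn. Of the basal keratinocyte markers, 3 of 19 could be tested. Of those, krt91 was at 4.55 to 8.86 TPM (median 5.68) in gill and 6.91 to 439.7 TPM (median 145) in epidermis with a log2 difference of -3.70 (SE 0.78, adjusted p = 0.0138). The defining basal factor gene tp63 averaged 1.2 TPM in gill and 1.07 TPM in epidermis, and the basal keratin gene krtt1c19e was listed at 0 TPM in all 12 libraries. Whether keratinocytes or their RNA among the sorted cells had a part in the epidermal levels was not tested.

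Several genes of the cytoskeleton and its anchoring, outside the lists and chosen after their values were seen, were also higher in epidermis. The annexin gene anxa2a was at 199, 59.6, 102, 344 and 322 TPM in gill and 533 to 2531 TPM with a median of 1238 TPM in epidermis, at -2.88 (SE 0.41, adjusted p = 0.00059). The actin-severing gelsolin genes gsna and gsnb did not overlap between the tissues: gsna was at 99.4 to 186 TPM (median 101) in gill and 247 to 585 TPM (median 444) in epidermis, and gsnb at 39.2 to 130.0 TPM (median 91.6) and 220.2 to 828 TPM (median 324). The keratin gene krt8, of simple epithelia, differed by -1.14 (SE 0.22, adjusted p = 0.00934), and the nuclear lamina gene lmna, among the 15 most changed, was under 1 TPM in all 5 gill libraries and at 21.5 to 53.3 TPM with a median of 41.8 TPM in epidermis.

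Genes for stress and the immediate-early response were higher in gill. Of 49 tested genes, 17 rose in gill and 0 fell, a share of 34.7% beside the 0.958% of all genes, and 46 of the 49 had a positive difference, with a median of 1.39. Without gill library 5 the count was 11. The list summed to 21615 to 47995 TPM in gill and to 7536 to 16190 TPM in epidermis, and these sums did not overlap.

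Within it, AP-1 subunits led by abundance. The gene fosab was at 1680.1, 1424, 1981, 1039 and 2006 TPM in gill and 159.8 to 537 TPM with a median of 239.9 TPM in epidermis, at 2.57 (SE 0.32, adjusted p = 0.0002). Its partner jun was at 2569.6, 2858, 2819.6, 4291 and 9118 TPM in gill and 570.4 to 1483 TPM with a median of 828 TPM in epidermis, at 2.11 (SE 0.29, adjusted p = 0.0005). Both were higher in every gill library than in any epidermis library. The paralogues junba and junbb also passed, with log2 differences of 2.13 (SE 0.38, adjusted p = 0.00503) and 2.11 (SE 0.37, adjusted p = 0.00396), although junba of gill library 4, at 525.7 TPM, lay within the epidermal range of 106 to 565 TPM (median 302). The stress-responsive factor gene atf3 was at 112 to 275 TPM (median 191) in gill and 0.752 to 81.2 TPM (median 7.41) in epidermis. Other members of the list did not pass: fosb, fosl2, dusp1 and nr4a1 had log2 differences of 0.58, 0.04, 0.45 and 0.38.

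Inducible chaperone genes differed by larger factors and varied more. The Hsp70 gene hsp70.2 was at 132, 329.6, 52.5, 2106 and 961 TPM in gill libraries 1 to 5 and 2.27 to 91.6 TPM with a median of 9.20 TPM in epidermis, at 4.98 (SE 0.85, adjusted p = 0.00332). Gill library 4 was the highest of the gill, and epidermis library 4, at 91.6 TPM, overlapped gill library 3. The gene hsp70.3 gave 4.68 (SE 0.90, adjusted p = 0.00867) and the co-chaperone gene dnajb1b 3.72 (SE 0.69, adjusted p = 0.00635), whereas the constitutive chaperone gene hspa8 averaged 1577 TPM in gill and 1418 TPM in epidermis and did not pass. The hsp70 copies are near-identical, and no source used here tells how reads shared by copies were counted. The growth-arrest gene gadd45ab was at 122, 13.7, 35.8, 76.7 and 14.5 TPM in gill and listed at 0 TPM in all 7 epidermis libraries, so that it passed the filter only through gill. Outside the list, and chosen after their values were seen, ddit3, which encodes the stress factor CHOP, was at 2266, 2269.5, 2138, 1816 and 2464 TPM in gill and 289.8 to 1026 TPM with a median of 606 TPM in epidermis, and the phosphatase regulator gene ppp1r15a differed by 2.53 (SE 0.37, adjusted p = 0.00074).

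The cytokine feedback inhibitor gene socs3a was at 412, 347, 329.6, 217 and 726 TPM in gill and 23.4 to 89.9 TPM with a median of 37.3 TPM in epidermis, with a log2 difference of 3.17 (SE 0.42, adjusted p = 0.00042). Every gill library was above every epidermis library, and it was the 1 called gene of 15 tested on the interferon response list (6.67%, beside 1.59% of all genes), where the median was -0.34. The serine synthesis gene psat1 was at 16.6 to 99.5 TPM (median 45.6) in gill and 0 to 6.97 TPM (median 0.248) in epidermis (4.51, SE 0.94, adjusted p = 0.013). The prostaglandin synthase gene ptgs2b differed by 1.82 (SE 0.36, adjusted p = 0.00964), its gill range of 266 to 712 TPM (median 525) overlapping the epidermal range of 97.5 to 293 TPM (median 118). The insulin-like growth factor binding protein gene igfbp1a was at 186 to 837 TPM (median 405) in gill and 23.9 to 151 TPM (median 98.3) in epidermis (2.31, SE 0.45, adjusted p = 0.00902), and it was the only called member of 21 tested genes of the hypoxia response (4.76%, beside 1.59% of all genes), whose median was 0.64.

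**Figure D3:**
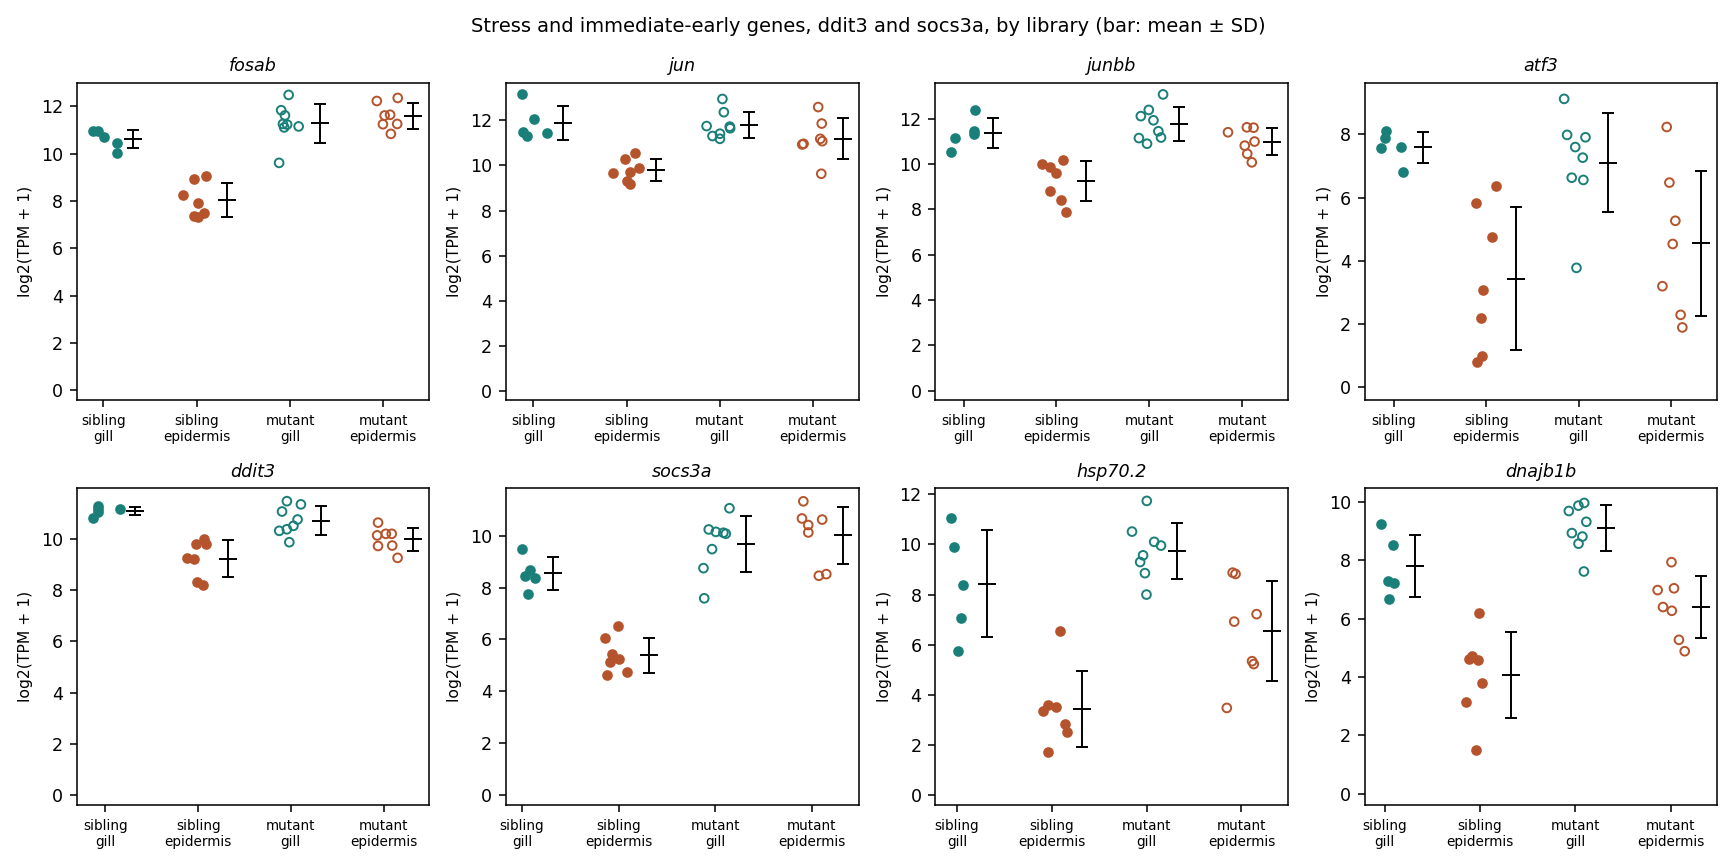
Each panel shows 1 gene and each point 1 library, on a log2(TPM + 1) axis, with the mean ± SD beside the points. Sibling gill (filled, first column) lies above sibling epidermis (second column), apart from an overlap in hsp70.2. In the mutant columns fosab and socs3a are high in both tissues, and jun, junbb and ddit3 also lie mostly above sibling epidermis in both.

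Of 24 tested myeloid effector genes, 0 passed the test in limma, beside 1.59% of all genes, so that a count of 0 is near the background. At an unadjusted p under 0.05 there were 7 of the 24, a larger share than the 1218 of all 9712 genes. The median difference was -0.30. The chemokine receptor gene cxcr4b, chosen after its values were seen, was at 2462 to 10419 TPM (median 6933) in gill and 3373 to 8800.0 TPM (median 6755) in epidermis. The oxidase gene ncf1 averaged 578 TPM in gill and 1164 TPM in epidermis, a log2 difference of -0.996 (SE 0.28, adjusted p = 0.0849), the smallest adjusted p among the effectors, and it passed under quantile normalization (adjusted p = 0.0295) and without gill library 3 (0.0433). The granulin gene grn2 ranged from 1008 to 6007 TPM (median 1515) in gill and 133 to 6032 TPM (median 1359.5) in epidermis. A p that missed the threshold does not show equal levels: the 95% interval of the log2 difference reached from -0.50 to 0.65 for cxcr4b, -0.26 to 2.77 for grn2 and -1.11 to 1.29 for the interleukin 22 binding protein gene il22ra2.

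Of 15 tested myeloid factors, 3 rose in gill and 1, spic, fell, beside 0.958% and 0.628% of all genes. The differentiation factor gene cebpb was at 211, 1271, 1563, 2088 and 621 TPM in gill and 1.91 to 205 TPM with a median of 44.0 TPM in epidermis, at 4.26 (SE 0.80, adjusted p = 0.0071). Epidermis library 6 was the lowest at 1.91 TPM. The Ets factor gene ets2 was at 245 to 822 TPM (median 473) in gill and 5.35 to 133.8 TPM (median 71.3) in epidermis (3.198, SE 0.62, adjusted p = 0.00867). The third, id3, encodes an inhibitor of basic helix-loop-helix factors that is not special to myeloid cells. It was at 486, 149, 140.4, 228 and 178 TPM in gill, and in epidermis it was under 3 TPM in 6 libraries and at 44.3 TPM in library 5 (6.33, SE 0.91, adjusted p = 0.00059). The factor genes runx1, ikzf1, elf1 and irf5 did not pass.

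Outside the list, the zinc finger gene egr2a, an immediate-early gene that the stress list also holds, was at 133, 247, 128, 83.5 and 251 TPM in gill and 0.375 to 24.3 TPM (median 1.70) in epidermis (5.58, SE 0.80, adjusted p = 0.00059), and mafbb, of the Maf family of macrophage factors, at 230.1, 102, 78.1, 1.25 and 266 TPM in gill and at most 1.92 TPM in epidermis (5.39, SE 1.09, adjusted p = 0.0106). Gill library 4 was an exception for mafbb and fell within the epidermal range. The same library was the lowest of the gill for the complement factor D gene cfd, at 352, 444, 139.97, 5.44 and 29.4 TPM over libraries 1 to 5, for the calcium-binding protein gene s100a11, at 503, 3570.0, 234, 15.6 and 817 TPM, and for the apolipoprotein E gene apoeb, at 84.8, 555, 141, 5.99 and 20.3 TPM. In epidermis these 3 genes did not exceed 6.86, 8.60 and 6.47 TPM. The log2 differences were 5.41 (SE 1.09, adjusted p = 0.0106) for cfd, 7.36 (SE 1.02, adjusted p = 0.0005) for s100a11, which is the largest of all named genes, and 4.95 (SE 1.04, adjusted p = 0.0138) for apoeb. The call for apoeb was lost without gill library 2 (adjusted p = 0.0519). The macrophage and dendritic list, which holds apoeb, had 7 tested members, of which 1 was called (14.3%, beside 1.59% of all genes). Of the 7, 5 had a negative difference, and the list's median was -0.51. The list summed to 155 to 1066 TPM in gill and 264 to 1226 TPM in epidermis. Its defining genes c1qa, c1qb, c1qc and csf1ra were listed at 0 TPM in all 12 libraries, and the part of such cells in these levels was not tested.

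Receptors and surface proteins gave calls in both directions. The cytokine receptor gene il21r.1 was at 49.9, 53.3, 51.8, 141 and 80.8 TPM in gill and 0 to 9.39 TPM (median 0.224) in epidermis (5.45, SE 0.88, adjusted p = 0.00184). The receptor subunit gene il13ra1 was at 138, 58.6, 43.3, 23.3 and 34.8 TPM in gill and 130.4 to 694 TPM with a median of 253 TPM in epidermis (-2.37, SE 0.46, adjusted p = 0.00867), with gill library 1 just inside the epidermal range. They were the 2 called of 28 tested cytokine receptors (7.14%, beside 1.59% of all genes), whose median was -0.17. Among lipid and orphan receptors, the lysophosphatidic acid receptor gene lpar6b was under 2 TPM in 4 gill libraries, at 61.4 TPM in gill library 2 and at 37.9 to 181 TPM with a median of 71.1 TPM in epidermis (-4.70, SE 0.87, adjusted p = 0.00635). The gene gpr34b was at 14.8 to 176 TPM (median 123.2) in epidermis and under 2 TPM in gill apart from 31.6 TPM in library 5 (-4.55, SE 0.98, adjusted p = 0.017, and adjusted p = 0.0534 without epidermis library 4). The orphan receptor gene gpr157 was under 0.25 TPM in all gill libraries and at 6.01 to 27.7 TPM (median 18.3) in epidermis (-3.93, SE 0.80, adjusted p = 0.0119). It passed the filter only through epidermis. Of 12 tested chemokines and chemokine receptors, cxcl18a.1 alone was called (8.33%, beside 1.59% of all genes). It was higher in epidermis (-3.996, SE 0.98, adjusted p = 0.0428), and that call was lost in 11 of the 12 fits that left out 1 library, with adjusted p up to 0.0971.

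Antigen presentation gave 1 call. Of 12 tested genes of MHC class II, 1 passed (8.33%, beside 0.628% of all genes called higher in epidermis). This was the invariant chain gene cd74b, at 2484, 3744, 2144, 2894 and 2482 TPM in gill and 4416 to 6336 TPM with a median of 4566 TPM in epidermis (-0.85, SE 0.16, adjusted p = 0.00632). Its ranges did not overlap, but the call was lost with a minimum change of 1.5-fold and in the fit of all 27 libraries. The other 11 did not pass, 9 of them with a negative difference, and the list's median was -0.79 beside 0.096 for all genes. The count followed the scaling, with 2 called under median centring and 5 under quantile normalization, all higher in epidermis. Among the larger of those that missed were mhc2dab (log2 difference -1.09, adjusted p = 0.16) and mhc2a (-0.94, adjusted p = 0.089). Of 22 tested genes of MHC class I loading and the immunoproteasome, 0 passed (2 at an unadjusted p under 0.05, beside 1218 of all 9712 genes), with a median of -0.40. Beside 1.59% of all genes, a count of 0 is near the background.

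A few members of other lists passed in one direction or the other. The Fgf feedback gene spry4 was at 90.5 to 176 TPM (median 153) in gill and 0.505 to 27.4 TPM (median 13.2) in epidermis (3.90, SE 0.72, adjusted p = 0.00635). It was 1 of 3 called, all higher in gill, among 15 tested genes of Wnt, Fgf, Bmp and hedgehog signalling (20%, beside 0.958% of all genes). The others were the Fgf-responsive etv4 and etv5a, whose calls were lost in 6 and 11 of the 12 fits that left out 1 library. The Wnt modulator gene dact2, outside the list, was at 17.1, 2.11, 132, 76.0 and 59.4 TPM in gill and below 0.5 TPM in epidermis (4.75, SE 0.93, adjusted p = 0.00867). Of 24 tested lipid and fatty acid genes, 3 were called higher in gill and 1 higher in epidermis (16.7%, beside 1.59% of all genes). Among them, the fatty acid elongase gene elovl6 was higher in epidermis, at 57.8 to 173 TPM (median 85.6) against 1.93 to 30.9 TPM (median 13.8) in gill (-3.09, SE 0.62, adjusted p = 0.00977). So were the matrix metalloproteinase gene mmp9, at 129.7 to 531 TPM (median 193) against 3.22 to 68.5 TPM (median 40.4) (-2.91, SE 0.59, adjusted p = 0.0116), and the cystatin gene cst14b.1, at 351 to 739.9 TPM (median 520.0) against 6.86 to 296 TPM (median 90.3) (-2.87, SE 0.58, adjusted p = 0.0106). These were the 2 called of 26 tested proteases and inhibitors (7.69%, beside 1.59% of all genes). The anti-apoptotic gene bcl2l1 was at 67.5 to 183 TPM (median 119) in epidermis and 0.544 to 66.6 TPM (median 5.37) in gill (-3.94, SE 0.75, adjusted p = 0.00762).

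The remaining genes among the 15 most raised in epidermis had varied roles and were low in gill. The interferon-induced gene ifi46 was at 68.3 to 226 TPM (median 111) in epidermis and 0.63 to 19.5 TPM (median 1.55) in gill (-4.81, SE 0.69, adjusted p = 0.00059). The tautomerase gene ddt, a relative of the cytokine gene mif, was at 8.12 to 48.5 TPM (median 27.2) against 0 to 1.63 TPM (median 0.186) (-4.33, SE 0.84, adjusted p = 0.00867). The ephrin ligand gene efnb1 was at 14.7 to 106 TPM (median 33.96) against 0 to 11.5 TPM (median 0.388) (-4.23, SE 0.86, adjusted p = 0.0116). None of these 3 overlapped between the tissues. The vesicular nucleotide transporter gene slc17a9a was at 21.04 to 62.5 TPM (median 29.6) against 0.0671 to 11.05 TPM (median 0.318) (-4.14, SE 0.85, adjusted p = 0.0119), also without overlap. For cnih4, of the cornichon cargo receptors, and the calpain protease gene capn2b the ranges overlapped, and the differences were -4.38 (SE 0.90, adjusted p = 0.0119) and -3.99 (SE 0.81, adjusted p = 0.0116).

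The EF-hand gene pvalb8 was higher in gill, at 138, 704, 8.0, 10.6 and 2137 TPM in libraries 1 to 5 and 0 to 10.4 TPM (median 0.294) in epidermis (5.57, SE 1.25, adjusted p = 0.0228). Its spread within gill was wide, libraries 3 and 4 lay within or at the edge of the epidermal range, and the call was lost without gill library 1, 2 or 5 (adjusted p = 0.0577, 0.0926 and 0.102). It is also on the list of mucous cell markers, of which 4 were tested and all were positive. That list summed to 636 to 3897 TPM in gill and 217 to 1113 TPM in epidermis, and its mucin genes muc5.1, muc5.2 and muc5.3 did not exceed 1.90 TPM. The part of mucous cells in the pvalb8 level was not tested.

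For the larger lists a count of 0 is near the background of 1.59%. Of 48 tested lysosome genes, 83 nuclear genes of oxidative phosphorylation, 80 ribosomal protein genes, 25 cell cycle genes, 25 claudins, cadherins and Epcam and 21 innate sensors, 0 passed in limma. Of them 5, 8, 11, 4, 2 and 3 had an unadjusted p under 0.05, beside 1218 of all 9712 genes. Ribosomal protein genes had a positive difference for 77 of 80 with a median of 0.25, and for 52 of 80 with a median of 0.06 under median centring. Genes of neuroendocrine and sensory cells summed to 720 to 1541 TPM in gill and 186 to 540 TPM in epidermis without overlap, and 12 of 13 had a positive difference (median 1.76). Of the 13, 0 passed, with up to 3 called higher in gill under the alternatives. An unadjusted p under 0.05 was reached by 8 of them, a larger share than that of all genes. The retinoic acid list had a median of 1.79 over 10 tested genes and 0 passed, the nearest being the reductase gene dhrs3b (log2 difference 3.85, adjusted p = 0.059). Up to 1 was called higher in gill under the alternatives. An unadjusted p under 0.05 was reached by 4 of the 10, also a larger share than that of all genes. Single genes were called on the lists of iron and heme (fth1a, -0.81), ionocytes (trpv6, 4.28) and neutrophils (mmp9), out of 16, 11 and 3 tested. These are 6.25%, 9.09% and 33.3%, beside 1.59% of all genes. On the neutrophil list mmp9 was higher in epidermis, whereas the other 2 tested genes, pnp5a and nccrp1, had positive differences of 1.94 and 0.52 and were not called. The calls of fth1a and trpv6 were each lost in 10 of the 12 fits that left out 1 library.

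**Figure D4:**
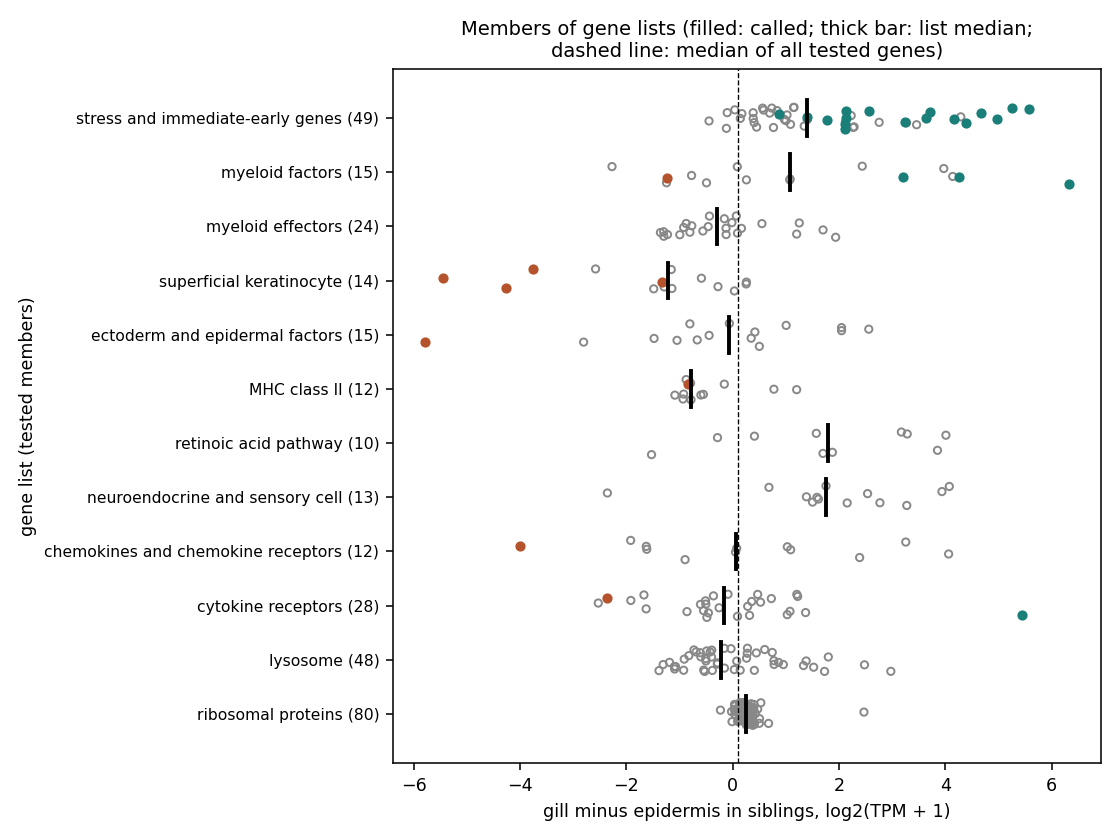
Each point is 1 tested gene of a list, placed by its gill minus epidermis difference in siblings on the log2(TPM + 1) scale, filled where it was called, with a bar at the list's median and a dashed line at the median of all tested genes, 0.096. The stress list extends to the right with 17 called genes, the superficial keratinocyte list to the left with 4, and the myeloid effectors stay near the dashed line with 0.

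The gene with the smallest adjusted p has only a clone name. The transcript si:dkey-193p11.2, chosen after its values were seen, was at 319, 213, 211, 245 and 256 TPM in gill and 4776 to 11532 TPM with a median of 6804 TPM in epidermis, at -4.88 (SE 0.20, adjusted p = 2.3e-12). Within each tissue its libraries differed by less than 3 times. The RefSeq annotation of assembly GRCz12tu lists it as a long non-coding RNA on chromosome 12 between glud1b and sncgb. In mutants it was also lower in gill, at 627 to 3856 TPM (median 1884) against 11299 to 76731 TPM (median 69226) in epidermis, with a log2 difference of -4.81. Of the 154 called genes, 30 had clone-style names. A further 2 of them, si:ch73-359m17.7 and si:ch73-359m17.9, were higher in sibling epidermis, at 1335 to 2135 TPM (median 1982) and 465 to 1809 TPM (median 1150.0) against 109 to 1246 TPM (median 203) and 8.15 to 598 TPM (median 51.5) in gill, with gill library 2 the highest of the gill for both.

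The mutant libraries share no sample with the siblings and hold cells of another genotype and another expression state, so that both the shared signs and the interaction compare unlike cells. The gene spi1a averaged 11.7 TPM in mutant gill and 4.95 TPM in mutant epidermis, against 539 and 497 TPM in siblings. The level of mpeg1.1 was 1.71 and 1.29 TPM on average, and that of ncf1 10.5 and 9.30 TPM. Of factor genes on the neuroendocrine list, atoh1a was at 291 to 969.8 TPM (median 813) in mutant gill and 3.53 to 214 TPM (median 121) in sibling gill. In epidermis insm1b was at 5.65 to 685 TPM (median 354) in mutants and 0.658 to 1.85 TPM (median 1.19) in siblings. The part of this difference in the values that follow was not tested. In the mutant libraries 337 of the same 9712 genes passed (3.47%), and the median difference of all genes was 0.42. Of the 93 genes higher in sibling gill, 83 were also higher in mutant gill (89.2%, beside 68.2% of all tested genes with a positive sibling difference). Of the 61 higher in sibling epidermis, 34 kept that sign (55.7% beside 37.5%), and over all 9712 genes the signs matched in 54.1%. After each genotype's median was subtracted, 74 and 42 kept their sign, beside 53.7% of all genes in either direction. By the mutants' own test, 35 of the 154 passed with the same sign, 23 of them higher in gill, and 2 passed with the opposite sign.

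The pouch and ectoderm factor genes were among those that passed again. In mutants pax9 was at 70.4 to 247 TPM (median 155) in gill and 0.342 to 1.92 TPM (median 0.776) in epidermis, with a log2 difference of 6.28 (SE 0.60, adjusted p = 1e-08). For pax1b it was 4.76 (SE 0.61, adjusted p = 8.5e-06), for dlx3b -4.46 (SE 0.86, adjusted p = 0.00184) and for icn2 -6.76 (SE 0.72, adjusted p = 1.2e-07). Mutant gill library 6 was apart for dlx3b, at 90.8 TPM. The genes icn, krt91, s100a11, apoeb and elovl6 passed as well, with differences of -1.39, -5.48, 4.50, 5.88 and -2.90. For krt4 the difference was -1.77 (SE 0.41, adjusted p = 0.0114), with mutant gill at 227 to 905 TPM (median 385), and the change of the difference did not pass (interaction 2.504, SE 0.62, adjusted p = 0.0929). Another called keratinocyte marker, anxa1a, was at 0.263 to 83.3 TPM in mutant gill and 1.12 to 15.2 TPM in mutant epidermis. Its range in sibling epidermis was 129.6 to 419 TPM. The genes gpr34b, lpar6b, cnih4 and bcl2l1, all higher in sibling epidermis, did not pass in mutants and had mutant differences of 0.56, 1.70, 1.36 and 0.02. Of genes higher in sibling gill, gadd45ab was at 0.282 to 73.1 TPM in mutant gill and 0.533 to 127 TPM in mutant epidermis. For egr2a these ranges were 103 to 1382 TPM and 3.45 to 322 TPM.

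**Figure D5:**
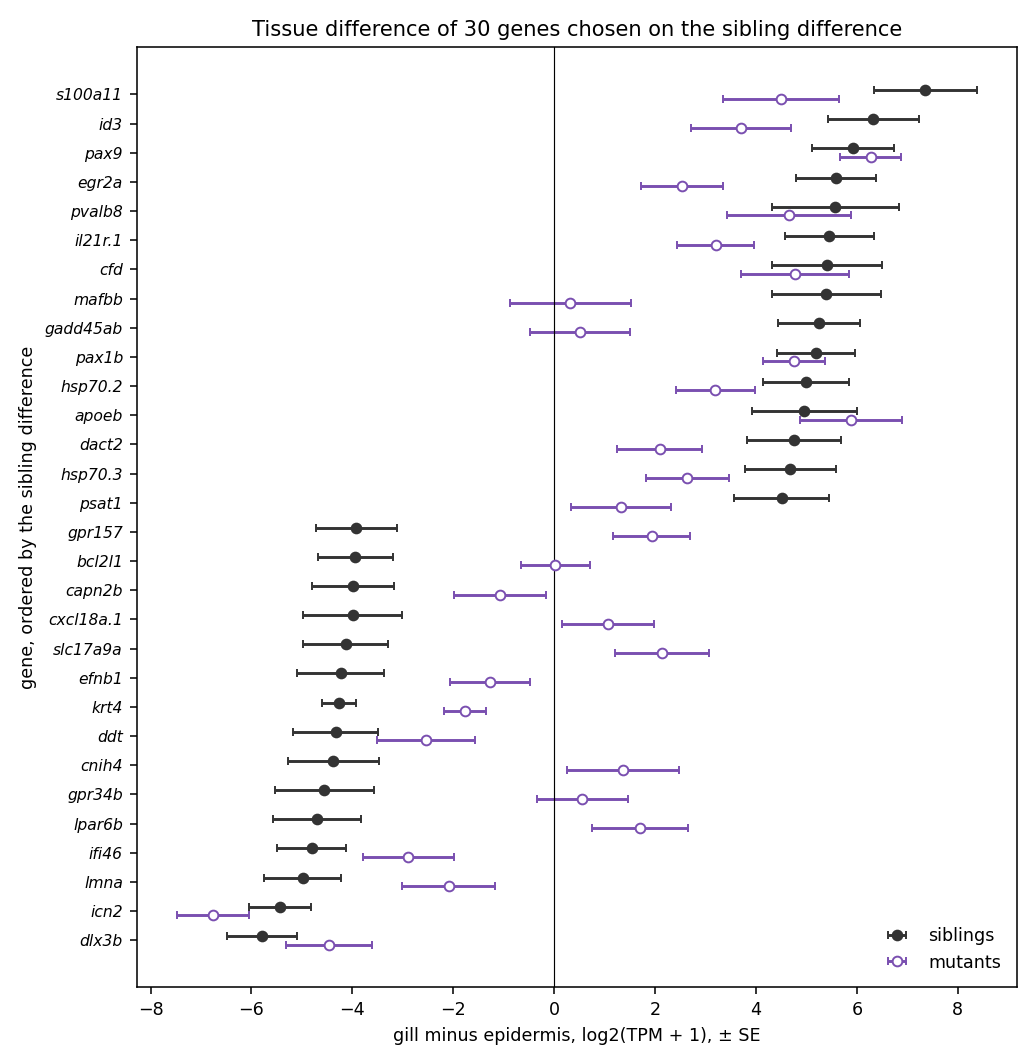
For the 15 genes with the largest differences in each direction in siblings, filled points give the gill minus epidermis difference in siblings and open points that in mutants, on the log2(TPM + 1) scale with standard errors. The genes were chosen on the sibling values, so the sibling points are a description; pax9, pax1b, apoeb, dlx3b and icn2 lie on the same side of 0 in mutants, and lpar6b, cnih4, slc17a9a and gpr157 lie on the other side of 0.

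The test of the difference itself, mutant minus sibling tissue difference in a fit of all 27 libraries, called 9 genes (0.0927%), 6 higher and 3 lower, with 919 at an unadjusted p under 0.05. The median of this difference over all genes was 0.34, and centring each library on its median left 1 higher and 5 lower. The gene fosab had a tissue difference in siblings and none that passed in mutants, at 784 to 5745 TPM (median 2432) in mutant gill and 1834 to 5251 TPM (median 3144) in mutant epidermis (interaction -2.88, SE 0.49, adjusted p = 0.00592). Every sibling epidermis library was below every library of the other 3 groups, and its call held in each of the 27 fits that left out 1 library. The inhibitor gene socs3a had the same pattern, at 191 to 2134 TPM (median 1093) and 350.2 to 2569 TPM (median 1362) (interaction -3.50, SE 0.70, adjusted p = 0.0287), called in 20 of the 27 fits, the exceptions being those without sibling gill 1 or 5, sibling epidermis 4 or mutant epidermis 2, 3, 4 or 5 (adjusted p up to 0.0749). The gene gpr157, under 0.25 TPM in sibling gill, was at most 0.5 TPM in mutant epidermis (interaction 5.86, SE 1.15, adjusted p = 0.0244). In mutant gill it was at 43.6, 45.4 and 11.3 TPM in libraries 1, 2 and 4 and under 1 TPM in the others. Its interaction call was lost without mutant epidermis 2 or 4 (adjusted p = 0.0513 and 0.0510).

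The glycolytic regulator gene pfkfb3 did not pass in siblings, at 17.3 to 35.3 TPM (median 22.6) in gill and 23.9 to 87.5 TPM (median 48.3) in epidermis, and was at 39.9 to 176 TPM (median 107) in mutant gill and 0.383 to 31.2 TPM (median 1.15) in mutant epidermis (interaction 5.38, SE 1.0, adjusted p = 0.0165), called in all 27 fits. The clone-named genes si:dkeyp-82a1.4 and si:ch211-196h16.12 were also called in all 27. The calls of cd74b (1.72, SE 0.36, adjusted p = 0.0405), cyp1a (7.71, SE 1.65, adjusted p = 0.0487) and fgd4b (-3.08, SE 0.66, adjusted p = 0.0487) were kept in 11, 8 and 6 of the 27 fits.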

How the data were processed

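The deposited table holds TPM (transcript abundance scaled to a fixed total) for 32520 genes in 27 libraries, made by the authors. Its row numbers run to 32667, so 147 numbered rows were not analysed here and list sizes and sums cover only the rows at hand. The tools featureCounts, STAR and DESeq2 stand in the submitters' processing notes beside the zebrafish build GRCz11 (danRer11), with no role, version or strand setting. No source used here tells how reads shared by paralogues or by overlapping and antisense genes were counted, so such genes are uncertain. TPM is not a count and keeps no total depth, so no count model was used. The lowest steps of the values were read as the worth of 1 read in TPM, with 95.3% of values whole within 0.05 of a read, up to 20 reads.

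Libraries were grouped by their labels. Values were analysed as log2(TPM + 1) for genes at 1 TPM or more in at least 5 of the 12 sibling libraries, so that differences of low genes are understated. The tissues were compared in the 12 sibling libraries with limma 3.58.1 (trended eBayes, R 4.3.3), with Benjamini-Hochberg adjustment over all 9712 genes; mutants and the interaction came from a fit of all 27 libraries. For spic an exact permutation test was used. The fit was tested on simulated data. No 2 libraries held identical values. Named genes were the 15 largest called changes in each direction with a group mean of 10 TPM or more and no clone-style name, up to 5 interaction genes in each direction, up to 4 members of each list with the smallest p, and spic, spi1a and mpeg1.1; every other gene named was chosen after its values were seen. The 29 gene groups and 13 marker lists, and the comparison itself, were chosen with earlier results of these data known, and lists are described by counts and medians without a test. RefSeq names and neighbours come from assembly GRCz12tu, and no coordinates or sequences are given. Alternatives were other pseudocounts (0.1 and 10), filters and scalings, array weights, robust eBayes, a covariate, a replicate block, a minimum change, a rank test and leaving out each library.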

Additional observations from a re-analysis of the deposited data

Results flagged for a closer look

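Among 92 genes that the text names with values, 184 groups of sibling libraries were checked for a library set apart from the rest of its group on the log2(TPM + 1) scale, and 26 were found. Chance alone flags about 1 in 20 groups, or 9.2 of them if groups were independent, which genes of 1 library are not. In epidermis, id3 was highest in library 5 at 44.3 TPM, egr2a in library 7 at 24.3 TPM and hsp70.2 in library 4 at 91.6 TPM. Epidermis library 2 was highest for il21r.1 at 9.39 TPM, for apoeb at 6.47 TPM and for cd74b at 6336 TPM. It was also highest for trpv6 at 2.42 TPM. Epidermis library 1 was lowest for icn2 at 78.6 TPM and for lmna at 21.5 TPM, and highest for atoh1a at 39.0 TPM. Epidermis library 3 was highest for dhrs3b at 6.59 TPM, and library 6 was lowest for fth1a at 9624.5 TPM and for hspa8 at 1076.5 TPM.

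In gill, pax9 was lowest in library 2 at 31.3 TPM and mafbb in library 4 at 1.25 TPM. Gill library 2 was highest for lpar6b at 61.4 TPM, ddt at 1.63 TPM, slc17a9a at 11.05 TPM and icn at 14255 TPM. Gill library 3 was highest for efnb1 at 11.5 TPM, for cxcl18a.1 at 36.7 TPM and for gsna at 186.5 TPM. The gene gpr34b was highest in library 5 at 31.6 TPM and cyp1a in library 1 at 42.5 TPM, the library in which mpeg1.1 was lowest at 12.2 TPM and mhc2a at 914 TPM.

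The tissue difference of 7 named genes differed between mutants and siblings by the interaction test, on the log2(TPM + 1) scale and as mutant minus sibling difference. It was -2.88 for fosab, -3.50 for socs3a and -3.08 for fgd4b, a guanine exchange factor gene. It was 5.86 for gpr157, 1.72 for cd74b, 5.38 for pfkfb3 and 7.71 for cyp1a, which encodes the cytochrome P450 induced through the aryl hydrocarbon receptor.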

How the results depend on the processing

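The 154 genes called between sibling gill and epidermis became 43 with no filter on low values, 85 with the number of genes at 1 TPM as a covariate, 72 with a replicate block, 70 with a minimum change of 1.5-fold and 0 in the rank test, and the cause was not tested. Leaving out 1 library gave 108 to 151, and the other alternatives 137 to 171. Median centring moved the share higher in gill from 60.4% to 47.2%, the median of all genes moving from 0.096 to -0.10, and quantile normalization moved it to 53.4%. The 9 interaction genes became 19 with array weights, 3 with the covariate, 27 with the replicate block and 4 to 22 without 1 library (16 and 22 without mutant gill 7 and 8, 20, 4, 5 and 4 without mutant epidermis 1, 2, 3 and 4). Same-numbered gill and epidermis libraries deviated together with correlations of -0.012 to 0.078, and 3 of 5 gill libraries correlated best with their own number. These few values do not settle whether the numbers pair the samples. The spic difference kept its direction and side of the threshold in the exact test under all its alternatives (-1.45 to -1.0). By limma its adjusted p of 0.022 became 0.0501, 0.0549 and 0.0531 without gill 1, gill 2 and epidermis 1, 0.087 with no filter, 0.101 with the replicate block, 0.423 with the minimum change, 0.629 in the fit of all 27 libraries and 0.127 in the rank test. No called gene that the text names changed sign; among differences near 0 that were not called, spi1a ranged from -0.11 to 0.27, cxcr4b from -0.12 to 0.41 and epcam from -0.44 to 0.18. Calls of cd74b, gsna, gsnb, krt8, igfbp1a, ptgs2b, cst14b.1, cnih4 and si:ch73-359m17.7, among others, were also lost in the fit of all 27 libraries. The stress list's 17 calls became 5 with no filter, 8 with the covariate, 12 with the replicate block and 0 in the rank test. With 30 cells and 23 PCR cycles a library, a value near 0 may be a transcript not captured.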
